A study of Saccharomyces cerevisiae with 30 samples.

Results

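Transcript levels of 10 genes of budding yeast were followed in 30 cultures: HIS1, HIS3, HIS4, HIS5 and HIS7 of histidine synthesis, TRP2, TRP3, TRP4 and TRP5 of tryptophan synthesis, and GCN4, the transcriptional activator of amino acid synthesis genes. The genes were chosen by pathway and not for how they moved, though with earlier results of these data known. They are 10 of 5449 S. cerevisiae genes that the array's annotation names. Each had 1 probe set, so no choice among probe sets arose. All 10 were among the 5429 genes tested, and all 300 of their values lay above the background of the arrays. The lowest was an intensity of 445, for TRP4 in a DMSO culture at 15 h, and the highest was 20110, for GCN4 in a DMSO culture at 4 h. The background, the 95th percentile of probe sets for another yeast species, lay between 11.2 and 34.5. An intensity is the brightness of a probe set on an array that the authors scaled to a common mean, so a level is relative to the array's other signals. Fewer cells that express a gene and less of its RNA per cell cannot be told apart. Intensities of different probe sets are not compared with each other below.

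The cultures were of strain S288C, grown at 30 °C in synthetic dextrose broth that held no amino acids, and were treated at an optical density of 0.2. E9591 (eupolauridine-9591, 0.053 µM) and LMT (liriodenine methiodide, 2.6 µM) were each given for about 4 h and for about 15 h (4.5 doublings). The metal chelators BIPR (2,2'-bipyridyl, 65.9 µM) and PHEN (1,10-phenanthroline, 6.2 µM), used in the study as references for the response to iron deficiency, were given for about 4 h. Each dose was the compound's own IC50, a concentration set by inhibition, so doses differ between compounds, and control cultures received DMSO at 0.25%. There were 3 arrays, each from its own culture, in the E9591, LMT, BIPR and PHEN groups at 4 h, in the E9591 and LMT groups at 15 h, and in each of 4 DMSO groups: 1 for E9591 at 4 h, 1 for LMT at 4 h, 1 shared by the chelators and 1 shared by E9591 and LMT at 15 h. The labels call the cultures biological replicates and give no cell density at harvest for the 15 h cultures.

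Histidine synthesis starts from phosphoribosyl pyrophosphate and ATP, and tryptophan synthesis from chorismate, the end of the shared aromatic trunk, with phosphoribosyl pyrophosphate joining later. In yeast both routes are under general amino acid control: when any of several amino acids runs short, uncharged tRNA activates the kinase Gcn2, translation of the GCN4 message increases through short upstream reading frames in its leader, and the Gcn4 protein activates many biosynthetic genes together. GCN4 is therefore a gene whose protein is set largely by translation and degradation, which an array of transcripts does not measure. The HIS4 promoter is also activated by Bas1 and Pho2, which serve purine synthesis as well.

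Replicate C of the chelators' DMSO group stood apart from the other arrays of its group. It differed from replicates A and B by an SD of 0.386 and 0.355 on the log2 scale over all genes, while A and B differed by 0.227. Its GCN4 intensity was 20110, against 12520 and 13510 in the other two cultures, and its HIS1 intensity was 16160, against 11640 and 11100. Strain S288C is of the alpha mating type, and STE3, the a-factor receptor of alpha cells, averaged 3287 in LMT cultures and between 6487 and 7246 in the other 4 h groups, and at 15 h 1823 in E9591 and 3035 in LMT cultures, against 346 in DMSO cultures. The a-cell gene STE2 was also above background, with means of 1781 in E9591 and 2108 in LMT cultures at 4 h, against 391 and 801 in their DMSO cultures. Changes below are log2 differences of the first-named group minus the second, ± standard error (limma, n = 3 arrays per group unless stated), with p-values adjusted over all 5429 genes. An adjusted p under 0.05 counts as a call.

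At 15 h, the HIS and TRP enzyme genes were many-fold brighter in E9591 cultures than in DMSO cultures of the same experiment, and LMT cultures lay between them. All 9 enzyme genes were called higher with E9591 and all 9 with LMT, and for each of the 9 the 3 groups of arrays lay apart. Groups that did not overlap were found in 88.2% of all genes for E9591 and DMSO, 84.7% for LMT and DMSO, and 80.6% for E9591 and LMT. The changes ran between 1.89 and 4.32 with E9591 and between 0.74 and 2.72 with LMT. GCN4 itself changed little: 0.32 ± 0.12 with E9591 and 0.01 ± 0.12 with LMT. Calls were common at 15 h, since 45.7% of all tested genes were called higher with E9591 and 41.9% with LMT. A change of at least 4-fold upward was called for 7 of the 10 genes with E9591, against 12.7% of all genes, and for 2 of the 10 with LMT, against 8.31% of all genes. The median change of the 10 genes was 3.01 with E9591 and 1.53 with LMT, while over all genes it was 0.05 and -0.01.

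**Figure D1:**
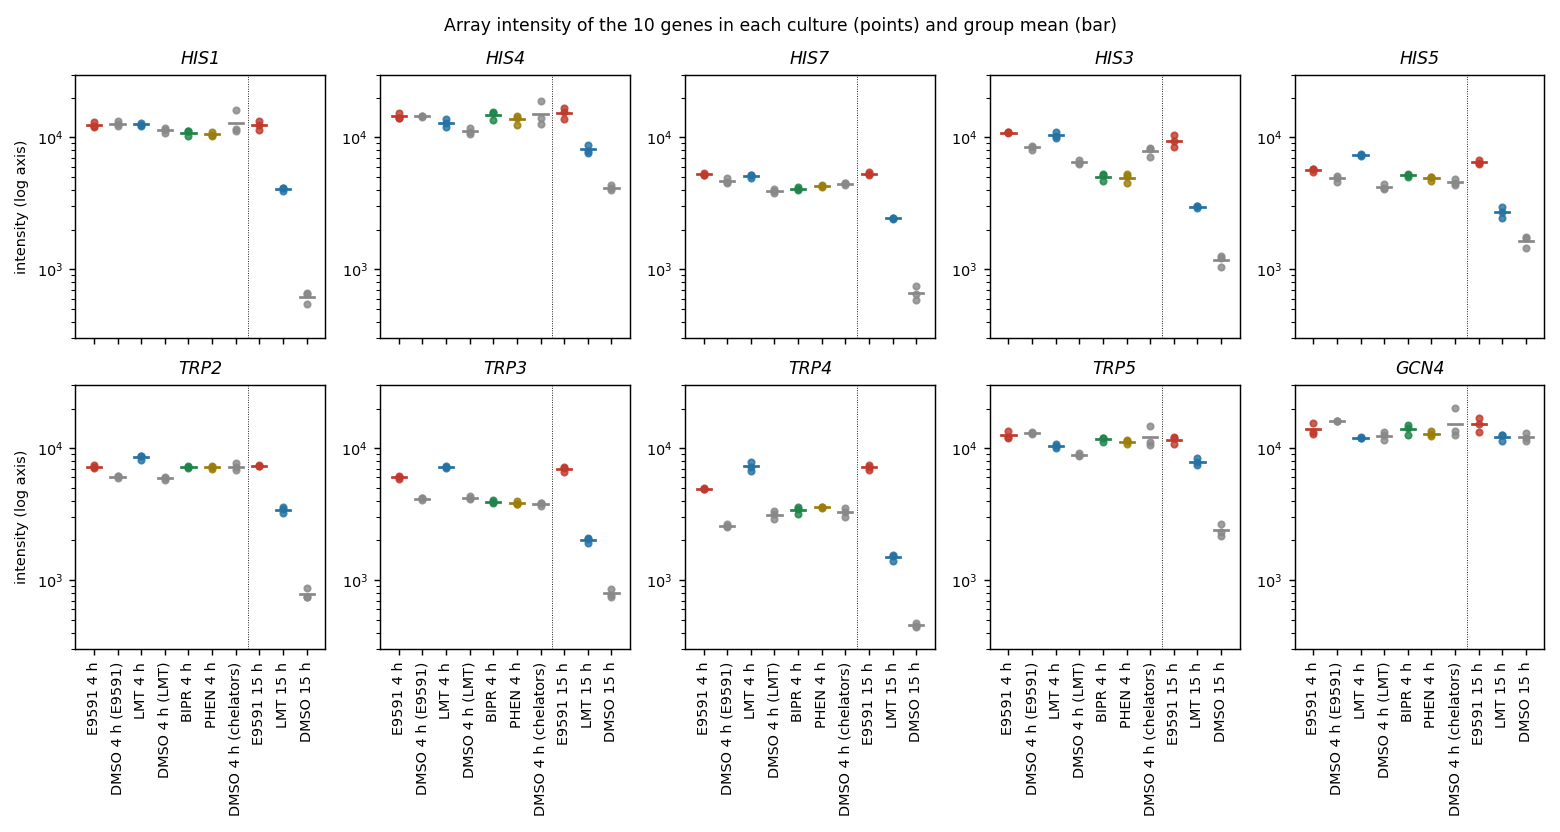
Intensity (log axis) of each of the 10 genes on every array (points) and the mean of each group of 3 (bar), with the 4 h groups left of the dotted line and the 15 h groups right of it. In each enzyme gene's panel the DMSO 15 h arrays lie lowest, the LMT 15 h arrays above them and the E9591 15 h arrays near or above the 4 h DMSO arrays, while GCN4 stays between 11280 and 20110.

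HIS1 encodes ATP phosphoribosyltransferase, the first enzyme of histidine synthesis and the one inhibited by histidine. At 15 h its intensity was 12390, 11390 and 13230 in E9591 cultures and 4148, 3905 and 4164 in LMT cultures, against 548, 651 and 656 in DMSO cultures. The 3 groups did not overlap, and HIS1 was the most strongly changed of the 10 genes in both comparisons. It was 20-fold higher with E9591 (4.32 ± 0.10, adjusted p = 1.96e-22) and 6.60-fold higher with LMT (2.72 ± 0.10, adjusted p = 3.54e-18). With E9591 it stood at place 56 of the 5429 genes ordered from the largest rise down.

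HIS4 encodes a protein with several activities that carries out early steps and the last step of the route. Its intensity was 15580, 13850 and 16800 in E9591 cultures and 7951, 7641 and 8778 in LMT cultures, against 3985, 4164 and 4323 in DMSO cultures at 15 h. Again no arrays of the 3 groups overlapped, but the change was the smallest of the enzyme genes with E9591, at 1.89 ± 0.10 or 3.70-fold, and 0.96 ± 0.10 with LMT. HIS7 encodes the glutamine amidotransferase and cyclase that builds the imidazole ring. It read 5428, 5165 and 5312 in E9591 cultures and 2412, 2469 and 2456 in LMT cultures, against 584, 651 and 743 in DMSO cultures, which made it 8.07-fold higher with E9591 and 3.72-fold higher with LMT.

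HIS3 encodes imidazoleglycerol-phosphate dehydratase and is widely used as a selectable marker. Its intensity was 9481, 8463 and 10370 in E9591 cultures and 3000, 3035 and 2929 in LMT cultures, against 1042, 1265 and 1222 in DMSO cultures. The changes were 3.0 ± 0.08 with E9591 and 1.35 ± 0.08 with LMT. HIS5 encodes histidinol-phosphate aminotransferase. It read 6422, 6750 and 6326 in E9591 cultures and 2729, 2994 and 2458 in LMT cultures, against 1442, 1720 and 1750 in DMSO cultures. With LMT its change of 0.74 ± 0.07 was the smallest of the enzyme genes, and with E9591 it was 1.99 ± 0.07.

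TRP2 and TRP3 encode the partners of anthranilate synthase, which commits chorismate to tryptophan, and TRP3 also carries indole-glycerol-phosphate synthase. TRP2 read 7330, 7334 and 7425 in E9591 cultures and 3605, 3238 and 3439 in LMT cultures, against 751, 743 and 876 in DMSO cultures. TRP3 read 7048, 6548 and 7150 in E9591 cultures and 2078, 2064 and 1917 in LMT cultures, against 751, 860 and 776 in DMSO cultures. For both genes the 3 groups lay apart. With E9591 their changes were 3.22 ± 0.06 for TRP2 and 3.12 ± 0.05 for TRP3, but with LMT they parted, at 2.12 ± 0.06 for TRP2 and 1.34 ± 0.05 for TRP3.

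TRP4 encodes anthranilate phosphoribosyltransferase, which attaches the phosphoribosyl group. Its intensity was 7466, 6877 and 7270 in E9591 cultures and 1529, 1554 and 1402 in LMT cultures, against 447, 445 and 476 in DMSO cultures. It was 15.8-fold higher with E9591 (3.98 ± 0.06, adjusted p = 7.70e-25) and 3.27-fold higher with LMT (1.71 ± 0.06, adjusted p = 1.48e-17). TRP5 encodes tryptophan synthase, the last enzyme of the route. It read 11950, 10840 and 12150 in E9591 cultures and 7822, 7501 and 8422 in LMT cultures, against 2320, 2172 and 2655 in DMSO cultures. Its change was 2.29 ± 0.09 with E9591 and 1.74 ± 0.09 with LMT, so that among the enzyme genes the LMT cultures came nearest to the E9591 cultures for TRP5.

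GCN4 read 15190, 13200 and 17030 in E9591 cultures and 12620, 11410 and 12540 in LMT cultures, against 13030, 11280 and 11950 in DMSO cultures at 15 h. The E9591 arrays lay above the DMSO arrays by a narrow margin, and the LMT arrays overlapped them. The call with E9591 (1.25-fold, adjusted p = 0.0174) was lost without replicate B of the DMSO group (0.27) or replicate C of the E9591 group (0.23). It was also lost with arrays centred on their median (0.22). With LMT the 95% interval of the change ran from -0.24 to 0.26, and under quantile normalization the change was called higher (0.16).

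**Figure D2:**
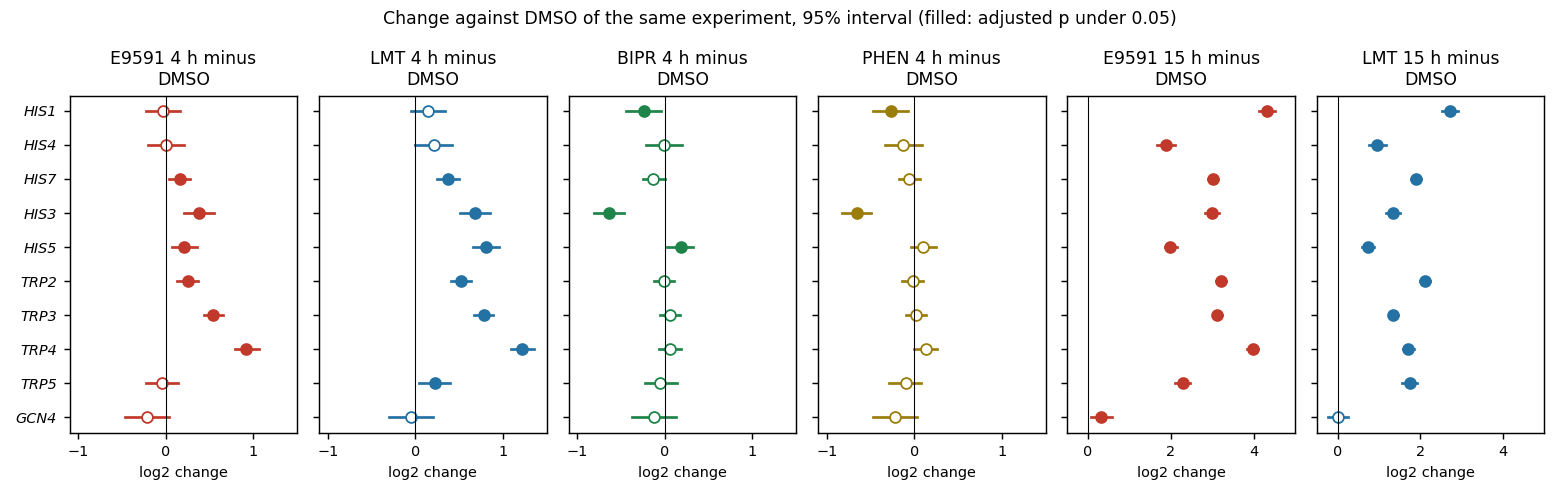
Log2 change of each gene against the DMSO cultures of the same experiment, with its 95% interval, in the 6 treatments; filled points have an adjusted p under 0.05, and the 15 h panels have a wider axis than the 4 h panels. TRP4 leads at 4 h with E9591 (0.92) and LMT (1.22), HIS3 is lowest with both chelators (-0.64 and -0.66), and HIS1 leads at 15 h with E9591 (4.32) and LMT (2.72).

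The E9591 and LMT cultures were also set against each other at 15 h, each at its own dose. All 10 genes were called higher with E9591, where 38.6% of all genes were, with a median difference of 1.19. The largest difference belonged to TRP4 (2.27 ± 0.06, 4.82-fold), the only one of the 10 past 4-fold, where 2.17% of all genes were, followed by TRP3 (1.78 ± 0.05), HIS3 (1.65 ± 0.08) and HIS1 (1.60 ± 0.10). TRP5 differed least among the enzyme genes, at 0.56 ± 0.09. The difference for GCN4 was 0.31 ± 0.12 (adjusted p = 0.0253), and it was not called without replicate A (0.30) or C (0.22) of E9591 or replicate B of LMT (0.26), nor with arrays centred on their median (0.29). On the log2 scale the change with LMT was 75.7% of that with E9591 for TRP5 and 65.7% for TRP2, against 43.0% for TRP4 and 36.9% for HIS5.

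The levels at 15 h can be read against the 9 DMSO cultures at 4 h, a comparison in which time and experiment cannot be told apart. The 15 h DMSO cultures held less of these transcripts: all 10 genes were called lower than at 4 h, where 42.6% of all genes were, and 7 of the 10 were at least 4-fold lower, where 12.7% of all genes were. HIS1 stood at 5.0% of its mean 4 h DMSO level, TRP2 at 12.3%, HIS7 at 15.1%, TRP4 at 15.2% and HIS3 at 15.5%. HIS5 kept the largest share among the enzyme genes, 35.9%, and GCN4 was at 82.5%. The change of HIS1 was -4.32 ± 0.08, which placed it 49th from the bottom of the 5429 genes, and that of GCN4 was -0.26 ± 0.10 (adjusted p = 0.0170). The GCN4 call was lost without replicate B of the 15 h DMSO group (-0.21).

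Further comparisons, of E9591 and of LMT at 15 h with the 4 h DMSO cultures, were added after the levels had been seen. E9591 cultures at 15 h held the enzyme transcripts at or above the 4 h DMSO level, between 99.8% of it for HIS1 and 241% for TRP4. Here 7 of the 10 genes were called higher, where 46.1% of all genes were. All 3 E9591 arrays lay above all 9 DMSO arrays for TRP4 (1.27 ± 0.05), TRP3 (0.77 ± 0.04), HIS5 (0.52 ± 0.06) and HIS7 (0.28 ± 0.05). Of the HIS3 arrays (0.32 ± 0.07), 2 lay above that range and 1 within it. All 3 lay within the DMSO range for HIS1 (0.00 ± 0.08), HIS4 (0.20 ± 0.08), TRP2 (0.21 ± 0.05), TRP5 (0.06 ± 0.07) and GCN4 (0.06 ± 0.10). With arrays centred on their median, a shift of -0.23 in the median of all genes in this comparison, HIS1 was called lower (-0.22), HIS4 (-0.03) and TRP2 (-0.02) turned negative, and TRP4, TRP3 and HIS5 were the calls upward. Under quantile normalization all 10 genes were called higher, with HIS1 (0.16), TRP5 (0.22) and GCN4 (0.21) added, so that HIS1 was called in opposite directions by these rescalings. TRP5 was also called with array weights (0.12). The HIS4 call was lost without replicate A (0.19) or C (0.13) of E9591, replicate C of the LMT experiment's DMSO group (0.19) or replicate A (0.16) or B (0.18) of the chelators' DMSO group. LMT cultures at 15 h were called lower than the 4 h DMSO level in all 10 genes, where 34.3% of all genes were, at 32.9% for HIS1, 39.5% for HIS3, 49.9% for TRP3 and TRP4, and 69.6% for TRP5. The GCN4 call (-0.25 ± 0.10) was lost without replicate B of LMT (-0.20). For all 9 enzyme genes, every LMT array at 15 h lay above every DMSO array at 15 h and below every DMSO array at 4 h. The LMT and DMSO arrays of 15 h did not overlap in 84.7% of all genes. The share of all genes outside the range of the 9 DMSO arrays at 4 h was not counted here, for LMT or for E9591.

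**Figure D3:**
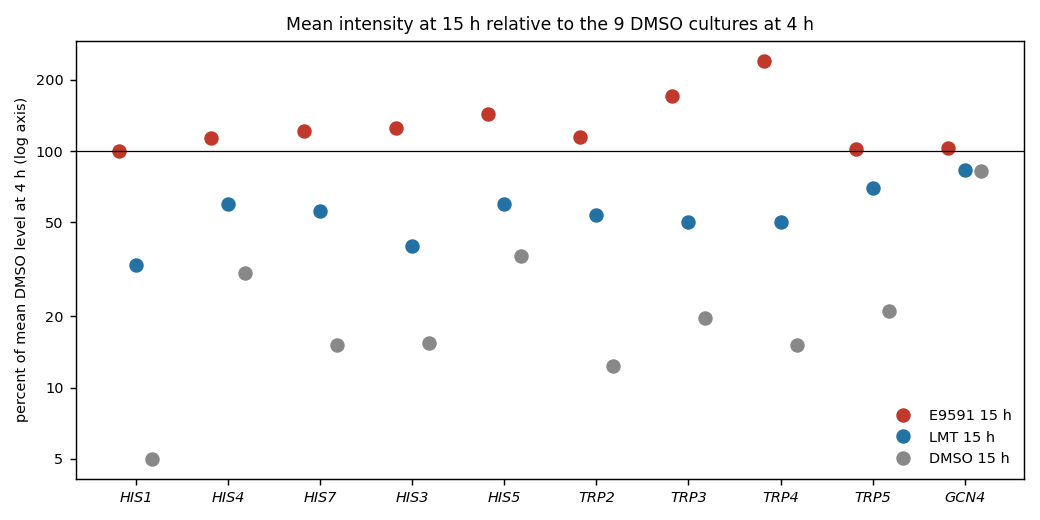
Mean intensity of each gene at 15 h in E9591, LMT and DMSO cultures, as a percent (log axis) of its mean over the 9 DMSO cultures at 4 h, marked by the line at 100. The E9591 points lie between 99.8 (HIS1) and 241 (TRP4), the LMT points between 32.9 (HIS1) and 83.2 (GCN4), and the DMSO points between 5.0 (HIS1) and 82.5 (GCN4).

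Transcripts of the general stress response, which accumulate when yeast growth slows, moved in the opposite direction. The summed intensity of HSP12, DDR2, CTT1, TPS1 and GSY2 was 13427 to 16815 in E9591 cultures and 38336 to 45106 in LMT cultures, against 75140 to 88421 in DMSO cultures at 15 h. In the 4 h groups it lay between 5137 and 18022. The sum joins markers that parted in E9591 cultures at 15 h when set against the 4 h DMSO cultures. There HSP12 (4.77) and DDR2 (4.03) were called higher, and CTT1 (-0.74), TPS1 (-0.48) and GSY2 (-1.55) were called lower. Against the DMSO cultures of 15 h, all 5 markers were called lower with E9591, where 42.2% of all genes were. All 5 were also called lower with LMT, where 41.9% of all genes were, and no marker was at 0. The 15 h order of the groups in these markers was thus the reverse of that in the enzyme genes, and the part that growth state has in the result was not tested.

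At 4 h the changes were smaller and uneven along the routes. With E9591, 6 of the 10 genes were called higher and 0 lower, where 32.0% of all genes were called higher and 11.3% lower. With LMT, 7 were called higher and 0 lower, where 40.4% of all genes were called higher and 25.2% lower. The median change of the 10 genes was 0.19 with E9591 and 0.45 with LMT, against 0.09 and 0.10 over all genes. At this size a common shift matters, and centring each array on its median moved the median change of all genes by -0.16 with E9591 and -0.20 with LMT. The summed stress markers were also higher at 4 h, at 13233 to 13651 in E9591 cultures, against 8897 to 11040 in their DMSO cultures, and at 16879 to 18022 in LMT cultures, against 5137 to 5721 in theirs. Of the 5 markers HSP12 and DDR2 were called higher with each compound. The other 3 were not called, with values of 0.00 for CTT1, 0.11 for TPS1 and 0.27 for GSY2 with E9591 and of -0.15, -0.26 and -0.36 with LMT. The part of these markers in the result was not tested.

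TRP4 led in both treatments. It read 4897, 4969 and 4869 in E9591 cultures, against 2561, 2549 and 2652 in their DMSO cultures, and 7270, 6759 and 7896 in LMT cultures, against 3316, 2913 and 3171 in theirs. The groups did not overlap, as was so for 62.4% of all genes with E9591 and 73% with LMT. The changes of TRP4 were 0.92 ± 0.06 with E9591 (adjusted p = 4.23e-11) and 1.22 ± 0.06 with LMT (adjusted p = 8.31e-14). TRP3 came next with E9591, at 6180, 5825 and 6082 against 4176, 4225 and 4024 in DMSO cultures, a change of 0.54 ± 0.05. With LMT it read 7215, 7056 and 7378, against 4099, 4214 and 4308 in DMSO cultures, a change of 0.78 ± 0.05. TRP2, which works with TRP3, had smaller changes of 0.25 ± 0.06 and 0.52 ± 0.06.

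Among the histidine genes, HIS3 read 10970, 10920 and 10790 in E9591 cultures, against 8515, 8029 and 8642 in DMSO cultures, and 10170, 9857 and 11070 in LMT cultures, against 6380, 6290 and 6719. Both changes were called, at 0.38 ± 0.08 and 0.68 ± 0.08. HIS5 read 7315, 7461 and 7263 in LMT cultures, against 4424, 4056 and 4122 in DMSO cultures, a change of 0.81 ± 0.07 that only TRP4 exceeded among the 10 genes. With E9591 the change of HIS5 was 0.21 ± 0.07, and that of HIS7 was 0.16 ± 0.06 with E9591 and 0.37 ± 0.06 with LMT. The E9591 calls of these genes each rested on single arrays: HIS5 was not called without replicate A (0.20) or B (0.20) of E9591 or B of DMSO (0.17), nor HIS7 without replicate A (0.14) or C (0.17) of E9591 or B (0.15) or C (0.14) of DMSO. Under median centring, TRP4 (0.77) and TRP3 (0.38) stayed called with E9591, while HIS3 (0.22), TRP2 (0.09), HIS5 (0.05) and HIS7 (0.00) did not.

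The first enzyme of the histidine route did not pass the test at 4 h with E9591 or LMT, and neither did HIS4 or GCN4. HIS1 averaged 12433 ± 572 in E9591 cultures and 12728.5 ± 522 in their DMSO cultures (SD, n = 3 each), a change of -0.03 ± 0.10 with a 95% interval from -0.23 to 0.16. With LMT its change was 0.14 ± 0.10. HIS4 had changes of 0.00 ± 0.10 with E9591 and 0.21 ± 0.10 with LMT (adjusted p = 0.0776). Under quantile normalization HIS1 (0.15 and 0.27) and HIS4 (0.17 and 0.35) were called higher with both, and so was TRP5 with E9591 (0.13). HIS1 (0.14) and HIS4 (0.21) were also called higher with LMT when array weights were used. TRP5 was not called with E9591 (-0.05 ± 0.09), and its call with LMT (0.22 ± 0.09, adjusted p = 0.0337) fell to 0.01 under centring and was lost without replicate B (0.22) or C (0.20) of the DMSO group or replicate A (0.21) or C (0.19) of the LMT group. GCN4 read 15580, 12780 and 13350 in E9591 cultures, against 16150, 16020 and 16150 in DMSO cultures, so that every E9591 array lay lower. Groups without overlap were found in 62.4% of all genes in that comparison. The change of GCN4, -0.22 ± 0.12 (adjusted p = 0.153), was called lower under centring (-0.38) and with array weights (-0.26). With LMT the change of GCN4 was -0.05 ± 0.12, with a 95% interval from -0.30 to 0.20.

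The 4 h effects of LMT and E9591 were compared in the same fit, each against its own DMSO cultures and at its own dose. All 10 differences, E9591 effect minus LMT effect, were below 0, and 4 genes were called, where 12.4% of all genes were called lower. These were HIS5 (-0.59 ± 0.10, adjusted p = 9.1e-05), TRP4 (-0.30 ± 0.09), TRP2 (-0.27 ± 0.08) and TRP3 (-0.24 ± 0.07). The count was 2 without replicate C of the LMT group, when TRP4 (-0.24) and TRP3 (-0.22) were not called. TRP4 was also lost without replicate B of the LMT experiment's DMSO group (-0.24), and TRP3 without replicate A of that group (-0.22), replicate B of E9591 (-0.21) or replicate B of its DMSO group (-0.22). The count also moved with the settings: it was 8 under quantile normalization, 9 with array weights, 7 with only the arrays of the experiments compared and 2 with arrays centred on their median. HIS3, HIS7 and TRP5 gained a call in the first 3 of these settings, and TRP2 (-0.23) and TRP3 (-0.19) lost theirs under centring. P-values of such differences between experiments leave out variation from one experiment to another. At 15 h, the direct comparison above had all 10 genes higher with E9591 than with LMT.

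HIS3 was lower with both chelators, and it was the one call that neither rescaling of the arrays nor leaving out an array removed. BIPR gave 3 calls and PHEN 2, where 46.2% and 48.9% of all genes were called in either direction. HIS3 read 5171, 5247 and 4635 in BIPR cultures and 5127, 4496 and 5260 in PHEN cultures, against 7057, 8107 and 8386 in their shared DMSO cultures. No chelator array overlapped the DMSO arrays, as was so for 48.7% of all genes with BIPR and 49.7% with PHEN. The change of HIS3 with BIPR was -0.64 ± 0.08, at an adjusted p of 6.91e-07. That with PHEN was -0.66 ± 0.08, at an adjusted p of 4.32e-07. HIS3 was the single gene of the 10 whose 4 h call was lower with the chelators and higher with E9591 and LMT. The difference between effects was 1.03 ± 0.11 for E9591 minus the mean of the chelators and 1.33 ± 0.11 for LMT minus that mean. The summed stress markers were higher with the chelators too, at 11721 to 16335 in BIPR cultures and 12270 to 15084 in PHEN cultures, against 8062 to 11230 in DMSO cultures. TPS1 and GSY2 were called higher and CTT1 lower with each, DDR2 was called higher with BIPR, and the part of these markers in the result was not tested.

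The other chelator calls were smaller and rested on single arrays. HIS1 was called lower with BIPR, at -0.24 ± 0.10 and an adjusted p of 0.0453, and PHEN, at -0.27 ± 0.10 and an adjusted p of 0.0234, but without replicate C of the DMSO group, which stood apart, the changes were -0.07 and -0.10 and not called. Without replicate A, B or C of BIPR, the change of HIS1 with BIPR (-0.26, -0.26 and -0.20) was not called either, nor was that with PHEN without replicate A (-0.25) or B (-0.26) of PHEN. HIS5 was called higher with BIPR (0.18 ± 0.07, adjusted p = 0.0398) and lost that call without any one of the BIPR arrays (0.20, 0.18 and 0.16) or without replicate A (0.17) or C (0.15) of the DMSO group. Without DMSO replicate A, PHEN gave 5 calls, with HIS4 (-0.25), TRP4 (0.18) and GCN4 (-0.35) added. TRP2, TRP3, TRP4 and TRP5 had changes between -0.05 and 0.06 with BIPR and between -0.10 and 0.13 with PHEN, none of them called.

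Against the mean chelator effect, 8 of the 10 genes were called higher with LMT, where 29.6% of all genes were, and 5 with E9591, where 18.9% of all genes were. The LMT count was 7 to 9 without single arrays and 6 to 9 under the 8 other alternatives. The E9591 count was 5 without any single array and 3 to 6 under those alternatives. With arrays centred on their median, HIS1 (0.28) and TRP5 (0.17) were not called with LMT. After HIS3 came TRP4, at 1.13 ± 0.09 with LMT and 0.83 ± 0.09 with E9591, and TRP3, at 0.74 ± 0.07 and 0.50 ± 0.07. PHEN and BIPR were also compared directly, each at its own dose. By limma 0 of the 10 genes and 0 of the 5429 were called, while 286 genes, 0 of them among the 10, had an unadjusted p under 0.05. The 95% interval of PHEN minus BIPR was -0.19 to 0.15 for HIS3, -0.06 to 0.20 for TRP4 and -0.35 to 0.15 for GCN4.

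The changes of the 10 genes over time were tested as the 15 h effect minus the 4 h effect of each compound. With E9591 all 10 were called higher at 15 h, where 39.7% of all genes were, led by HIS1 (4.35 ± 0.14), which had shown no call at 4 h. With LMT 8 were called higher, where 38.1% of all genes were, and HIS5 was the exception among the enzymes, with effects of 0.81 at 4 h and 0.74 at 15 h and a difference of -0.07 ± 0.10. HIS5 and TRP4 were the genes with the largest effects of LMT at 4 h, whereas HIS1 and TRP2 had the largest at 15 h. Since the 15 h DMSO cultures lay far below those of 4 h, a larger effect at 15 h is not a higher level: with LMT, TRP4 averaged 7308.5 at 4 h and 1495 at 15 h.

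Ordered by group mean, all 9 enzyme genes had LMT 15 h and DMSO 15 h in the last places, in that order, while the order of the other groups differed between genes. LMT at 4 h, for one, came first for TRP2, TRP3, TRP4 and HIS5 but 7th for HIS4 and TRP5. Pairwise Pearson correlations of their log2 group means were between 0.856 and 0.992 over 36 pairs, a description of points that share the low 15 h DMSO group. Over the 7 groups of 4 h alone they were between -0.185 and 0.931, with a median of 0.463. The SD of the group means on the log2 scale was 0.15 for GCN4, against 0.59 to 1.39 for the enzyme genes, and GCN4 correlated with the mean of the enzyme genes at 0.481. Ordered by mean, the 10 groups ran for GCN4 between 16108 in DMSO cultures of the E9591 experiment at 4 h and 12020 in LMT cultures at 4 h, and every neighbour in that order overlapped the next. For TRP4 the order was LMT 4 h, E9591 15 h, E9591 4 h, PHEN, BIPR and the 3 DMSO groups of 4 h, LMT 15 h and DMSO 15 h. The first 2 overlapped each other, PHEN, BIPR and 2 of the 4 h DMSO groups formed a run of overlapping neighbours, and the other neighbours lay apart. For HIS1 the first 8 groups formed 1 overlapping run, followed by LMT 15 h and DMSO 15 h, each apart.

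By the likeness of log2 group means over the 10 groups, GCN4 was nearest to PDC1 (pyruvate decarboxylase, r = 0.938), VMA3 (a proton pump subunit of the vacuole, 0.901), GLN1 (glutamine synthetase, 0.886), ADH1 (alcohol dehydrogenase, 0.879) and PAB1 (poly(A)-binding protein, 0.866). With an SD of 0.15 for the GCN4 means and overlapping neighbours, these correlations rest on small differences. The mean of the chelators' DMSO group also includes replicate C, which stood apart. The mean of the 9 enzyme genes was nearest to GGC1 (a mitochondrial GTP/GDP carrier, 0.993), ASN1 (asparagine synthetase, 0.992), SQT1 (a ribosomal protein chaperone, 0.988), BOI1 (polar growth, 0.987) and UTP22 (ribosome assembly, 0.986). Without the 15 h DMSO group the same 5 correlations with the enzyme mean were 0.973, 0.965, 0.939, 0.967 and 0.927. These still include the LMT 15 h group, the next lowest for all 9 enzyme genes. The 5 genes were picked as the highest over the same group means, so the values describe the likeness and do not test it.

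The other genes of both routes and of the steps that feed them came from lists set by pathway, and are given first for 15 h against DMSO. Of all genes, 45.7% were called higher and 42.2% lower with E9591 in that comparison, and 41.9% in each direction with LMT. HIS2 (histidinol-phosphatase) and HIS6 (an isomerase of the middle of the route) were called higher with E9591, both at 2.04, and with LMT at 1.40 and 0.45. All 4 genes of the aromatic trunk were called higher with both compounds, with medians of 3.18 with E9591 and 2.31 with LMT. ARO4 and ARO3, isoenzymes of the first trunk step, had changes of 4.40 ± 0.08 and 2.20 ± 0.10 with E9591 and of 3.52 ± 0.08 and 0.53 ± 0.10 with LMT, and ARO2, chorismate synthase, had 4.16 ± 0.07 and 3.08 ± 0.07. In the phenylalanine and tyrosine branch 4 of 5 genes were called higher with each compound, and ARO9, an aminotransferase of aromatic amino acid breakdown, was called lower (-1.81 ± 0.10 with E9591, -2.28 ± 0.10 with LMT). Of the 5 genes for phosphoribosyl pyrophosphate synthesis, 4 were called higher and PRS2 lower with each compound. Of 4 genes of serine synthesis, which supplies the last step of the tryptophan route, 3 were called higher with E9591 and 4 with LMT. TRP1 was listed for the tryptophan route but is not named by the annotation used here, and was not analysed.

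At 4 h the same neighbours moved less. HIS2 was called higher with E9591 (0.38 ± 0.06) and LMT (0.59 ± 0.06), while HIS6 was called with LMT (0.35). With BIPR and PHEN both were called lower, HIS2 at -0.18 and -0.31 and HIS6 at -0.34 and -0.25, beside HIS3. The lowest value of the trunk with the chelators was that of ARO3, -1.02 ± 0.10 with BIPR and -0.96 ± 0.10 with PHEN, with ARO2 (-0.32 and -0.39) and ARO4 (-0.38 and -0.46) also called lower. All 5 phosphoribosyl pyrophosphate synthesis genes were called lower with each chelator, with medians of -0.35 with BIPR and -0.37 with PHEN, where 18.5% and 19.7% of all genes were called lower.

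Genes of other amino acid routes that Gcn4 is known to activate, 31 tested of 33 listed, were counted in the same way, beside the shares of all genes called lower at 15 h, 42.2% with E9591 and 41.9% with LMT, and those called higher given above. At 15 h with E9591, 28 were called higher and 0 lower, with a median of 3.11, beside the 3.01 of the 10 genes. Of the 28, 21 were at least 4-fold higher, where 12.7% of all genes were. With LMT 23 were called higher and 3 lower, with a median of 1.65. BAT1, the mitochondrial branched-chain aminotransferase, had 4.65 and 3.56, LYS1, the last enzyme of lysine synthesis, 4.38 and 3.48, and ASN1 4.32 and 2.66. CPA1 of arginine synthesis, LEU4 of leucine synthesis and SNZ1 were called lower with LMT (-1.0, -0.86 and -0.37). At 4 h 8 were called higher and 2 lower with E9591, where 32.0% and 11.3% of all genes were. LMT gave 13 calls higher and 5 lower at 4 h, where 40.4% and 25.2% of all genes were. SNZ1 and SNO1, a divergent pair linked to vitamin B6 synthesis, led there with 2.44 and 2.05 with E9591 and 1.91 and 2.54 with LMT. With BIPR 0 were called higher and 10 lower, where 27.7% and 18.5% of all genes were. With PHEN 1 was called higher and 12 lower, where 29.2% and 19.7% of all genes were. Among those lower with both were ILV3, an enzyme with an iron-sulfur cluster in branched-chain amino acid synthesis (-1.58 and -1.56), and LEU9 of leucine synthesis (-1.38 and -1.40).

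**Figure D4:**
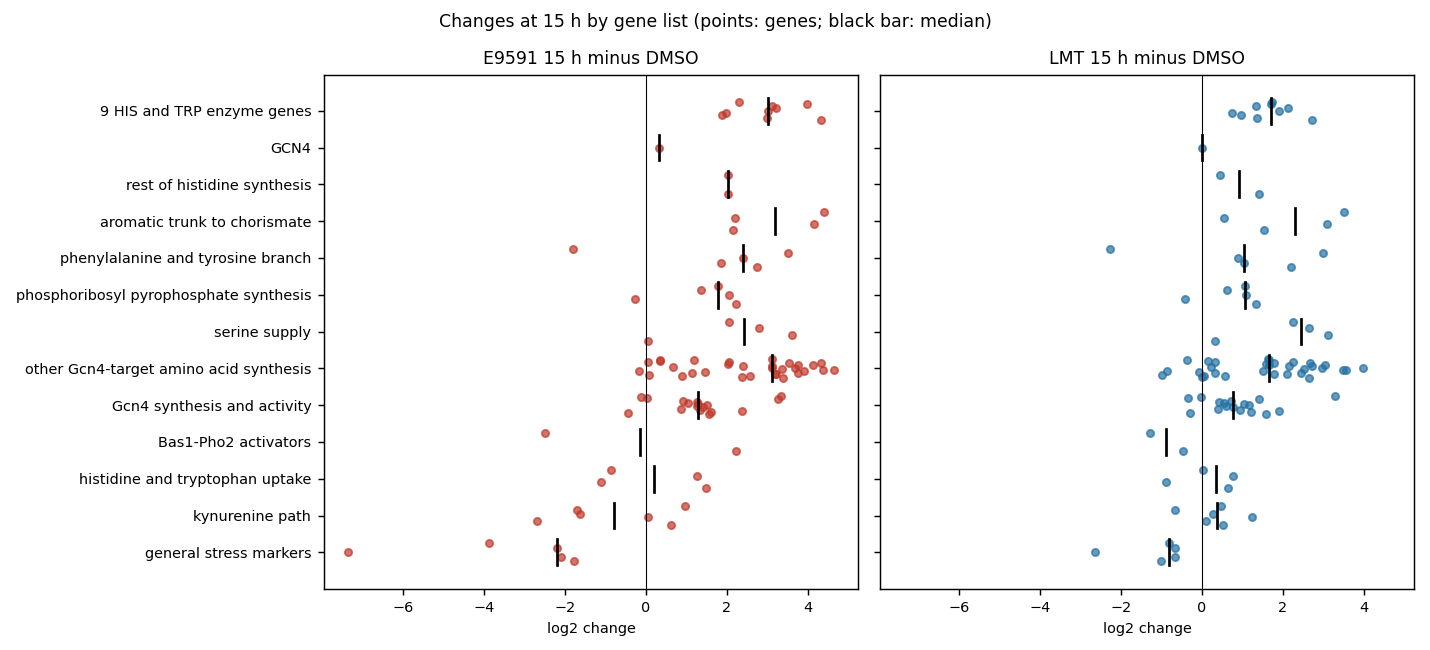
Log2 change at 15 h against DMSO of single genes (points) in each list, with the list's median (black bar), for E9591 and LMT. The 9 enzyme genes and the other Gcn4-target list lie to the right with medians of 3.01 and 3.11 for E9591, GCN4 lies near 0 (0.32 and 0.01), and all 5 general stress markers lie to the left.

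Of 17 genes that act on the synthesis or activity of Gcn4, 14 were called higher and 1 lower with E9591 at 15 h, and 14 higher and 2 lower with LMT, where 45.7% of all genes were called higher and 42.2% lower with E9591 and 41.9% in each direction with LMT. Many of these are subunits of translation initiation factors, such as GCN3, a regulatory subunit of eIF2B (2.37 and 1.89). GCN2, the kinase that senses uncharged tRNA, was called lower at 15 h (-0.45 ± 0.11 and -0.29 ± 0.11). At 4 h GCN2 was called higher with E9591 (0.29), LMT (0.48), BIPR (0.37) and PHEN (0.28). ASC1, a ribosome-associated protein that represses Gcn4, was called higher at 15 h (3.34 ± 0.17 and 3.28 ± 0.17). PCL5, the cyclin that directs Gcn4 for degradation and is itself a Gcn4 target, was called higher in all 6 comparisons: 0.93 ± 0.09 with E9591, 1.27 ± 0.09 with LMT, 0.40 with BIPR and 0.52 with PHEN at 4 h, and 3.27 ± 0.09 with E9591 and 1.40 ± 0.09 with LMT at 15 h.

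The activators that share the HIS4 promoter with Gcn4 parted from each other. BAS1 was called higher at 4 h with E9591 (0.75 ± 0.08) and LMT (1.44 ± 0.08), while at 15 h it was called higher with E9591 (2.22 ± 0.08) and lower with LMT (-0.47 ± 0.08), a difference of 2.69 ± 0.08. PHO2 was called lower at 15 h with both (-2.50 ± 0.11 and -1.30 ± 0.11). Among permeases, HIP1 for histidine and TAT2 for tryptophan were called higher at 15 h with E9591 (1.49 and 1.27) and LMT (0.65 and 0.77), and TAT1 was called lower (-1.11 and -0.89). GAP1, also listed there, was called lower with E9591 (-0.86) and was not called with LMT (0.03). The permeases were thus split with E9591, where 45.7% of all genes were called higher and 42.2% lower. In the kynurenine path, which consumes tryptophan to make NAD, 2 of 6 genes were called higher and 3 lower with E9591 at 15 h, and 4 higher and 1 lower with LMT. With E9591 these counts are near the shares of all genes, 45.7% higher and 42.2% lower, and with LMT the shares were 41.9% in each direction. Its first enzyme, BNA2, was called lower with E9591 (-2.69 ± 0.11), had 0.10 ± 0.11 with LMT, and was called higher with BIPR (0.91) and PHEN (1.13).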

How the data were processed

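The authors deposited 1 table of array intensity on a linear scale, 10928 probe sets by 30 one-colour arrays, 1 per culture. Each array's 2% trimmed mean is 1000.43 to 1000.82, so the values were scaled to a common mean. The sources used here do not name the software, probe summary or background correction. Platform annotation gave 5498 probe sets exactly 1 gene, and the probe set with the highest mean was kept per gene. A gene was tested if above the background on at least 3 arrays. A limma model (version 3.58.1, R 4.3.3) of log2(intensity + 1) took in all 30 arrays, 1 mean for each of the 10 groups, with 20 residual and 3.16 prior degrees of freedom, with two-sided p-values adjusted by Benjamini-Hochberg over 5429 genes. Fits were tested on simulated data. Precision is limited by the 3 arrays of each group.

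The 10 genes, all of which could be named, and the gene lists were chosen by pathway with earlier results of these data known. The genes of likeness were the 5 with the highest correlation. Comparisons of 15 h treatments with 4 h DMSO, and the 4-fold rule, were added after the data were seen. Alternatives were quantile normalization, median centring, a pseudocount of 16, no filter, the mean of probe sets, fewer arrays, array weights, a replicate block and leaving out each array. Whether replicate letters pair the samples was not settled. Correlations of deviations between arrays of the same letter were -0.09 to 0.33 in 24 pairs, 7 over 0.1. Arrays of different letters were not compared as a reference. P-values between experiments measure only the spread within them. No sequences were used here.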

Additional observations from a re-analysis of the deposited data

Results flagged for a closer look

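The effect of each compound differed between the 15 h and the 4 h experiment by a test of the difference itself (limma, adjusted p under 0.05) in the following genes. For E9591, the 15 h effect minus the 4 h effect was 4.35 for HIS1, 2.63 for HIS3, 1.89 for HIS4, 1.78 for HIS5 and 2.85 for HIS7. It was 2.97 for TRP2, 2.58 for TRP3, 3.05 for TRP4 and 2.34 for TRP5, and 0.54 for GCN4, whose effect was -0.22 at 4 h and 0.32 at 15 h. For LMT, the difference was 2.58 for HIS1, 0.67 for HIS3, 0.75 for HIS4 and 1.52 for HIS7, and 1.59 for TRP2, 0.57 for TRP3, 0.49 for TRP4 and 1.52 for TRP5. All these calls stood without each array in turn and under the 8 other alternatives run. Of those, the pseudocount, the filter and the mean of probe sets could change these genes little. The 15 h and 4 h effects have different DMSO groups, and the enzyme genes of the 15 h DMSO group lay at 5.0% to 35.9% of their 4 h DMSO level, so time, experiment and the level of the control cannot be told apart.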

How the results depend on the processing

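Of 2750 values of the 10 genes under alternatives, 2627 kept their direction and side of the threshold, 82 lost the call, 32 gained one and 9 changed sign. Some alternatives could move these genes little, so the kept values partly follow from the choice of settings. Each of the 10 genes had 1 probe set, a pseudocount of 16 is small beside their lowest intensity of 445, and dropping the filter added 20 genes. The calls of the 9 enzyme genes at 15 h against DMSO held in every alternative run. With arrays centred on their median, the count fell to 3 for E9591 at 4 h, to 2 for E9591 minus LMT effects at 4 h, to 3 for E9591 minus chelator effects and to 4 for E9591 at 15 h against 4 h DMSO. In the last, HIS1 (-0.22), HIS4 (-0.03) and TRP2 (-0.02) turned negative, whereas quantile normalization called HIS1 higher (0.16). Under quantile normalization the E9591 minus LMT count was 8, and values turned positive for HIS1 (0.15), HIS4 (0.17) and TRP5 (0.13) with E9591 at 4 h, for HIS4 with BIPR (0.20) and PHEN (0.12), and for GCN4 with LMT at 15 h against 4 h DMSO (0.02). With array weights the counts were 9 for E9591 minus LMT effects, 1 for BIPR and 1 for PHEN. With only the arrays of the experiments compared they were 7, 1 and 1. The replicate block, for which the labels give no stated ground, left 1 call for BIPR and changed no other count by over 1.5 times. The cause was not tested.

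Leaving out each array in turn, the counts of called genes were 4 to 6 (E9591) and 6 to 7 (LMT) at 4 h, 1 to 3 (BIPR), 1 to 5 (PHEN), 9 to 10 (E9591) and 9 (LMT) at 15 h, 9 to 10 (E9591 minus LMT at 15 h), 2 to 4 (E9591 minus LMT effects at 4 h) and 0 (PHEN minus BIPR). Signal over background limited none of the 10 genes.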
